A study of Mus musculus with 3 samples.

Results

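The antimicrobial and acute-phase genes S100a8, S100a9, Saa3, Saa1, Lcn2, Reg3g, Lypd8, Nos2, Pglyrp1 and Slpi were followed in the thymic epithelial cells (TEC) of old mice. These were 10 of 32285 mouse genes counted, taken by symbol. They were chosen by their UMI counts in epithelial cells in earlier results of the same data, so their presence there is a description and not a finding. Nonhematopoietic (CD45-) cells of untreated, 20-month-old C57BL/6 thymi had been profiled by single-cell RNA sequencing in 3 libraries from 1 pool each (n = 1 per group). Foxn1Lin female and Foxn1Lin male were from Foxn1 lineage trace mice, in which a Cre recombinase expressed from Foxn1 switches on a tdTomato reporter in TEC and their progeny, and the third library was from wild type males. Each pool was made of 10 to 15 thymi, so differences between animals could not be seen. The protocol text named female mice for all 3 libraries, and the cell type field of the wild type library named PECAM1+ cells although its title did not. Within each library, epithelial barcodes were those with at least 2 UMIs of Epcam and 0 of Pecam1 and Pdgfra, fibroblast (FB) barcodes had at least 2 UMIs of Pdgfra, and endothelial (EC) barcodes at least 2 UMIs of Pecam1. There were 408 epithelial barcodes of 8616 called barcodes in Foxn1Lin female, 436 of 3583 in Foxn1Lin male and 917 of 5478 in the wild type.

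In barrier tissues such as gut, airway and skin, epithelial cells secrete proteins that kill microbes, bind their products or withhold metals from them, and many of these proteins rise when the tissue meets cytokines or microbial products. The medulla of the thymus is different, because its TEC express such genes without a microbe. Aire lets medullary TEC transcribe many genes that otherwise belong to single peripheral tissues, and some TEC, called mimetic cells, also take on the transcription factors and gene programs of a peripheral cell type. Spib marks TEC resembling the microfold (M) cells of the gut, which pass antigen to underlying lymphocytes, and Krtdap marks TEC resembling keratinocytes. Cldn3 is a marker of TEC that the study described as age-associated (aaTEC1).

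The stretches around the transcription start of 6 of the genes are shown. They are the 2 pairs of neighboring genes, and Lcn2 and Pglyrp1, which were called in opposite directions between Spib-positive and Spib-negative TEC. RefSeq listed a start for 9 of the 10 genes (not Nos2) in the build GRCm38.p6, and each sequence covers 300 bases, 5′ to 3′ along the strand of the gene. The positions were chr3:90668821-90669120 (plus strand) for S100a8, chr3:90695672-90695971 (minus) for S100a9, chr7:46715627-46715926 (minus) for Saa3, chr7:46742931-46743230 (minus) for Saa1, chr2:32387690-32387989 (minus) for Lcn2 and chr7:18884440-18884739 (plus) for Pglyrp1. Capitals mark matches, on either strand, to 4 sets of letters: the NF-kB motif (GGG and CC spaced by any 5 bases), the C/EBP motif TTGCNNAA, the STAT motif TTCNNNGAA and the ETS motif GAGGAA, the last being the family of SPIB.
S100a8: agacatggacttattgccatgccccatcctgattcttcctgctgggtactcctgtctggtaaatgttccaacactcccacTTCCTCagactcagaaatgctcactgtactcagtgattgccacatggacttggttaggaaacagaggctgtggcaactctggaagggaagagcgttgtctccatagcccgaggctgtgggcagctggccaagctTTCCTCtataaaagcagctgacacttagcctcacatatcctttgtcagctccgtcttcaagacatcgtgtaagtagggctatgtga
S100a9: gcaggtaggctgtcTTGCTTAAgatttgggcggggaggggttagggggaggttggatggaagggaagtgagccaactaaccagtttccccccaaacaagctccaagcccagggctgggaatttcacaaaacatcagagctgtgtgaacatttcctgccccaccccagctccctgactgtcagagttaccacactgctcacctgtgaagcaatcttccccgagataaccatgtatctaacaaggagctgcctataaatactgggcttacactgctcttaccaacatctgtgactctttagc
Saa3: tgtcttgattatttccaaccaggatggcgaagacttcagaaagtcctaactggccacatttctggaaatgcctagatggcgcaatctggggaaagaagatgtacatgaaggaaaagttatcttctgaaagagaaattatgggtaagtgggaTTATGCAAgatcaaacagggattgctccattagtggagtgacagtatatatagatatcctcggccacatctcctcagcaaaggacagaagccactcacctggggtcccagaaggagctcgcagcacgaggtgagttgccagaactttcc
Saa1: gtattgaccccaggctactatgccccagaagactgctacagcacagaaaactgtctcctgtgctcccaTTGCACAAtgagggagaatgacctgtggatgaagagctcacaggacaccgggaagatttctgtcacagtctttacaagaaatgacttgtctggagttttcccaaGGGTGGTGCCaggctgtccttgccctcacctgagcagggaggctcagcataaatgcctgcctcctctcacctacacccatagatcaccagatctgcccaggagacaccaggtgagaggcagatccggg
Lcn2: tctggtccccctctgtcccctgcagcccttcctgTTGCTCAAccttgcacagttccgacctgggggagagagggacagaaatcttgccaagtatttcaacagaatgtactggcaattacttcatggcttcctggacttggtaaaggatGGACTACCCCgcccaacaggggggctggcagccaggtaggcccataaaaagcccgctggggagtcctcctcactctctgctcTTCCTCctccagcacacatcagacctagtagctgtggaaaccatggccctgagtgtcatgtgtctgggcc
Pglyrp1: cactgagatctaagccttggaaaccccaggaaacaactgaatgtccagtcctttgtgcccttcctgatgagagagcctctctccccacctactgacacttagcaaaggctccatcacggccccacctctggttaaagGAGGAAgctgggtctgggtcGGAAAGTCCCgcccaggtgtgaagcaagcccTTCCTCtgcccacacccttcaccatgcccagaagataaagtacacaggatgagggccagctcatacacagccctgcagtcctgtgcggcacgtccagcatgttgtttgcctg

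Of the 9 genes with a RefSeq start, 5 (Lcn2, S100a9, Saa1, Saa3 and Slpi) held the C/EBP letters, which were in 10.8% of 32851 mouse promoters of the same length. The NF-kB letters were in 5 of the 9 and in 50.8% of all promoters, the ETS letters in 4 and in 28.3%, and the STAT letters in 0 and in 8.30%. No 2 motifs overlapped in the 6 sequences. These matches describe letters and not binding. All 10 genes are annotated as protein coding in GENCODE vM21, and 2 pairs are neighbors. S100a8 (chr3:90668978-90670035) and S100a9 (chr3:90692632-90695721) are 22596 bases apart, and Saa3 (chr7:46711998-46715700) and Saa1 (chr7:46740497-46742980) are 24796 bases apart. The other genes lie at chr2:32384633-32388252 (Lcn2), chr2:164354070-164389095 (Slpi), chr6:78466269-78468872 (Reg3g), chr7:18871331-18890459 (Pglyrp1), chr11:58379043-58390728 (Lypd8) and chr11:78920787-78960254 (Nos2) of GRCm38. The coding sequence of Saa1 was identical to that of its neighbor Saa2 at 95.1% of positions, so reads may be split between these genes and the Saa1 counts are uncertain. Saa1 and Saa3 were identical at 76.6%.

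Epithelial barcodes carried the RNA of TEC and also that of blood cells. Values are given below in the order Foxn1Lin female, Foxn1Lin male and wild type unless named otherwise. The summed level of 8 TEC markers was 8515 CPM (UMIs scaled to 1000000 per group of barcodes) in the epithelial barcodes of Foxn1Lin female, 9157 in those of Foxn1Lin male and 7186 in those of the wild type, against 198 to 518 in FB, and all 8 were detected. In EC it was 930, 878 and 2049 CPM, so wild type EC barcodes held the most TEC transcripts outside the epithelium. In epithelial barcodes 9 plasma cell genes summed to 11975, 4718 and 2672 CPM, in Foxn1Lin female more than the TEC markers. FB had 6279, 3014 and 1240 CPM of them, and EC 2953, 2511 and 3604. The sum of 10 hematopoietic genes was 820, 554 and 498 CPM in epithelial barcodes, against 43.6 to 95.8 in FB and 136 to 396 in EC. Median depth was 11138, 12670 and 16836 UMIs per epithelial barcode in the same order, 7552 to 9561 in FB and 4534 to 8247 in EC, and pairs of libraries shared 3 to 14 barcode sequences. Because S100a8 and S100a9 are best known from neutrophils, 12 neutrophil genes were counted in the epithelial barcodes. Their sum was 123, 64.8 and 55.4 CPM, and 4, 2 and 4 of the 12 genes were at 0. The markers did not go one way. The receptor Csf3r had 0, 1 and 0 UMIs, Retnlg had 0, 2 and 0, and Elane and Stfa2l1 had 0 in all libraries, but Ly6g, the usual surface marker of mouse neutrophils, had 128, 86 and 273 UMIs. The other large counts were of Mmp9, Ltf, Camp, Ngp and Mpo. In S100a8-positive epithelial barcodes the 12 genes summed to 317, 321 and 104 CPM against 76.7, 32.4 and 49.3 CPM in S100a8-negative ones. Other members showed this too. The sums were 243, 209 and 81.1 CPM against 85.5, 17.8 and 44.4 for Reg3g and 257, 159.7 and 124 against 78.8, 26.6 and 31.4 for Pglyrp1. They were also higher on the positive side of every library for S100a9, Saa1, Saa3 and Nos2, and their part in the values of the members was not tested.

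All 10 genes had a higher level in epithelial barcodes than in both FB and EC barcodes of every library, as had 42.4% of 18355 genes with at least 20 UMIs in epithelial barcodes. Since the genes were chosen for this, no test was made. UMIs of this 3′ assay are not scaled by gene length, so levels are compared here between groups of barcodes and not between genes. Reg3g, a C-type lectin that kills Gram-positive bacteria of the gut, had 336, 283 and 540 CPM in the epithelial barcodes of the 3 libraries. In FB it had 11.3, 15.2 and 73.2 CPM, and in wild type EC 212 CPM, so that the epithelial level there was 2.54-fold that of EC. Wild type EC also held the most TEC marker RNA, and its part in this value was not tested.

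**Figure D1:**
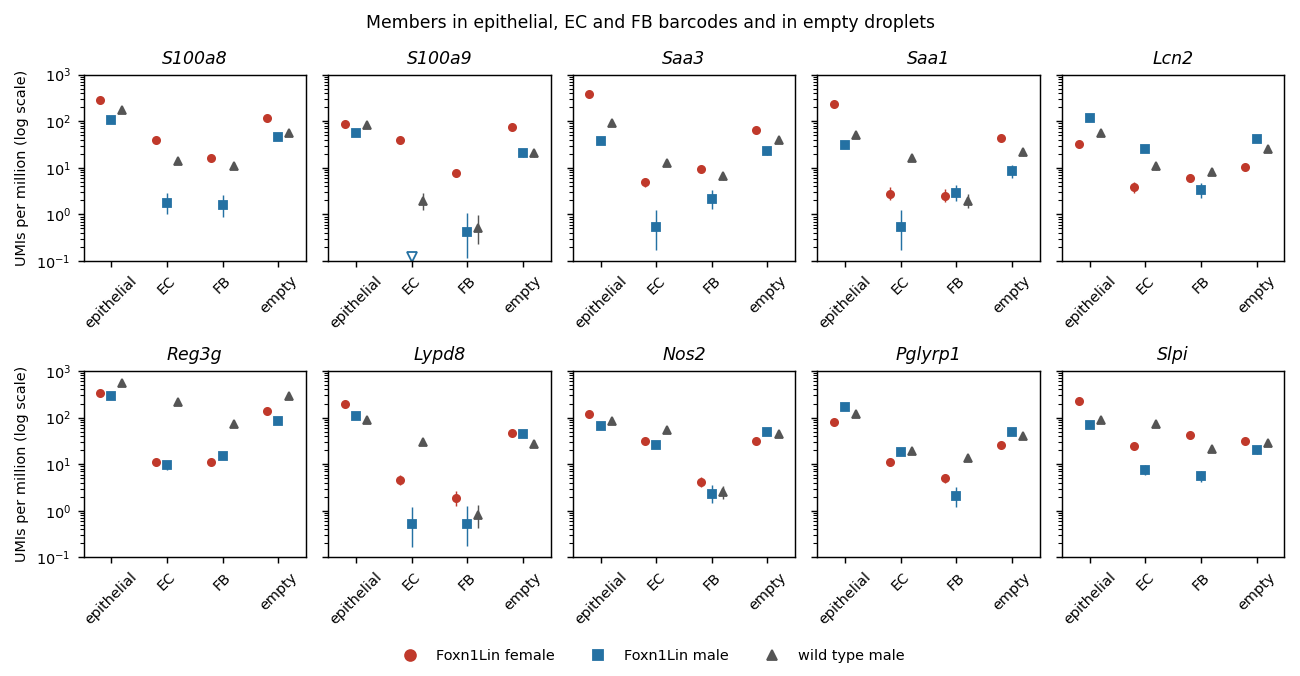
Level of each gene in epithelial, FB and EC barcodes of each library, in CPM on a logarithmic axis, with exact 95% Poisson intervals that cover counting error only. The epithelial values, from 30.6 (Saa1, Foxn1Lin male) to 540 (Reg3g, wild type), lie above the FB and EC values of the same library in every case.

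S100a8 and S100a9 form calprotectin, which withholds zinc and manganese from microbes. S100a8 had 288, 108 and 176 CPM, and S100a9 had 87.9, 56.6 and 82.2 CPM. Both were lowest in Foxn1Lin male. In EC of Foxn1Lin male S100a9 had 0 UMIs, and the epithelial level was at least 180-fold that of 3 counts there.

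The acute-phase proteins of the serum amyloid A family are released by liver in inflammation, and Saa3 also by other tissues. Saa3 had 388, 37.1 and 93.5 CPM, and Saa1 had 236, 30.6 and 49.5 CPM. The female library was the highest for both genes. Lcn2, which binds iron-loaded bacterial siderophores, went the other way, with 32.8 CPM in the female library against 118 and 54.6 CPM in the male ones.

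Lypd8, which coats flagellated bacteria in the colon, had 195, 106 and 89.1 CPM. Pglyrp1, a bactericidal protein that binds peptidoglycan, had 81.9, 168 and 122 CPM. Nos2, the inducible nitric oxide synthase, had 118, 65.4 and 84.6 CPM, which was 3.66-, 2.50- and 1.56-fold its EC level. EC had a UMI of Nos2 in 13.8%, 10.0% and 12.1% of barcodes against 25.5%, 14% and 19.8% of epithelial barcodes, while Pglyrp1 was found in 3.75%, 12.1% and 8.94% of EC barcodes. The EC levels were 32.2, 26.1 and 54.1 CPM of Nos2 and 11, 18.5 and 19.5 CPM of Pglyrp1, and empty droplets, described below, had 31.2, 50.2 and 43.7 CPM of Nos2 and 26.1, 47.8 and 39.5 CPM of Pglyrp1. Slpi, an inhibitor of neutrophil elastase, had 221, 71.0 and 88.8 CPM, and in the wild type only 1.22-fold the EC level of 73.0 CPM.

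Free RNA could have added to these levels. In empty droplets, taken as uncalled barcodes of at most 500 UMIs, the 10 genes were present too (their matrices, which hold all barcodes, name another version of Cell Ranger but had 0 entries that differed at the called barcodes), and the epithelial level was 1.20- to 6.97-fold that of the empty droplets. All 30 epithelial values lay above the empty droplets. After the 5 epithelial barcodes with the most UMIs of a gene were left out, 17 of the 30 values did. Lcn2 and Saa1 still did in 3 libraries, S100a8, Lypd8, Nos2 and Pglyrp1 in 2, Reg3g, S100a9 and Saa3 in 1, and Slpi in 0. These reduced values were not all above the full FB and EC levels either. S100a9 in Foxn1Lin female, at 24.9 CPM, lay below its EC level of 39.3, and Slpi lay below FB (41.9) and EC (24.5) in Foxn1Lin female, at 21.5 CPM, and below FB (21.5) and EC in the wild type, at 20.5 CPM.

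Few epithelial barcodes carried most of the RNA. Each gene was detected in a minority of epithelial barcodes, from 4.13% (S100a9, Foxn1Lin male) to 27.9% (Lcn2, wild type), with the remaining barcodes at 0. Reg3g was found in 21.8%, 17.9% and 23.8% of epithelial barcodes, Pglyrp1 in 20.6%, 17.9% and 20.5%, and Lcn2 in 9.80%, 27.8% and 27.9%. S100a8 was found in 14.7%, 6.42% and 9.71%, and S100a9 in 8.09%, 4.13% and 6.22%. Saa3 was found in 8.58%, 5.05% and 7.09%, and Saa1 in 9.07%, 4.36% and 6.11%. The lowest shares of the remaining genes were 8.07% for Lypd8, 7.52% for Slpi and 14% for Nos2. In FB the share was 0.331% to 11.6%, the highest being Reg3g in the wild type. After every barcode was thinned to 2000 UMIs, epithelial shares were 1.92% to 13.0%, while the FB share of Reg3g in the wild type was 3.55% against 11% in the epithelium.

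**Figure D2:**
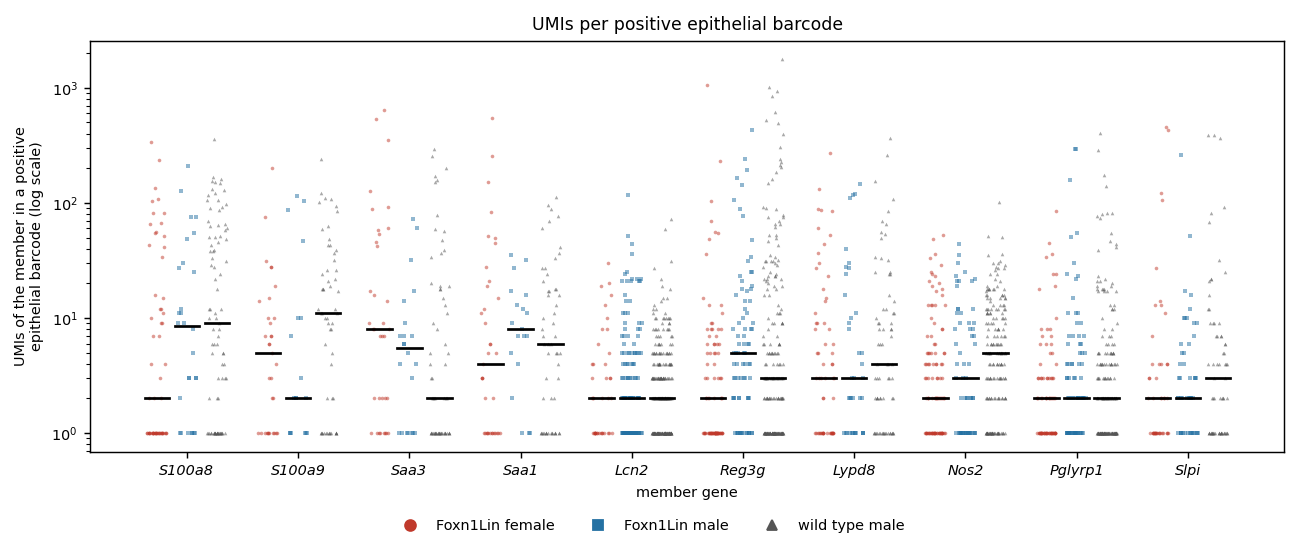
UMIs of each gene in every epithelial barcode with at least 1 UMI, by library, on a logarithmic axis; each point is a barcode and the line is the median. Medians lie between 2 and 11 UMIs, while single barcodes reach 1766 (Reg3g, wild type).

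The positive barcodes themselves were uneven. The median was 2 to 11 UMIs per positive barcode, but the highest barcode held 1064, 429 and 1766 UMIs of Reg3g, 639, 72 and 293 of Saa3, and 338, 208 and 361 of S100a8. The 5 barcodes with the most UMIs held between 16.9% (Nos2, wild type) and 91.4% (S100a9, Foxn1Lin male) of all epithelial UMIs of a gene. Nos2 and Lcn2 were the most evenly spread, with no more than 34.2% and 52.1% of their UMIs in 5 barcodes. Summed over the 10 genes, the 41, 44 and 92 barcodes with the most UMIs of them, 1 in 10 of the epithelial barcodes, held 86.7%, 78.6% and 84.3% of the UMIs. A UMI of at least 1 of the 10 genes was found in 60.3%, 59.4% and 64.7% of epithelial barcodes, and at least 10 UMIs of 1 gene in 18.1%, 20.0% and 21.7%. The largest number of the 10 genes in 1 barcode was 8, 9 and 10, and 5 or more were found in 35, 17 and 44 barcodes.

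Several of the genes were often found in the same barcode. Of S100a9-positive barcodes, 61.1% to 78.9% over the libraries were also S100a8-positive, and of S100a8-positive barcodes 39.3% to 50.6% were S100a9-positive, against 1.45% to 2.59% of S100a8-negative ones. Saa3 was found in 60.7% to 68.4% of Saa1-positive barcodes and Saa1 in 52.3% to 65.7% of Saa3-positive ones, against 1.45% to 3.75% of Saa3-negative ones. Genes that are not neighbors shared barcodes too. Pglyrp1 was found in 61.4% to 66.7% of S100a9-positive and 45.9% to 73.7% of Saa1-positive barcodes, and Nos2 in 47.7% to 68.6% of Saa3-positive ones. Of Lypd8-positive barcodes, 59.3% to 70.3% held Nos2 and 52.5% to 60.5% held Pglyrp1, and 56.9% to 61.9% of Pglyrp1-positive barcodes held Reg3g. Of Lcn2-positive barcodes, 1.65% to 19.8% held any given one of the other genes. Slpi-positive barcodes were as low for S100a8, S100a9, Saa1 and Saa3 (2.08% to 17.4%), while Lcn2 was found in 6.67%, 50.0% and 37.7% of them against 10.2%, 25% and 27.1% of Slpi-negative ones, lower in Foxn1Lin female and higher in the other two. Barcode depth was not matched for these shares, and the barcodes of a library are not replicates.

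**Figure D3:**
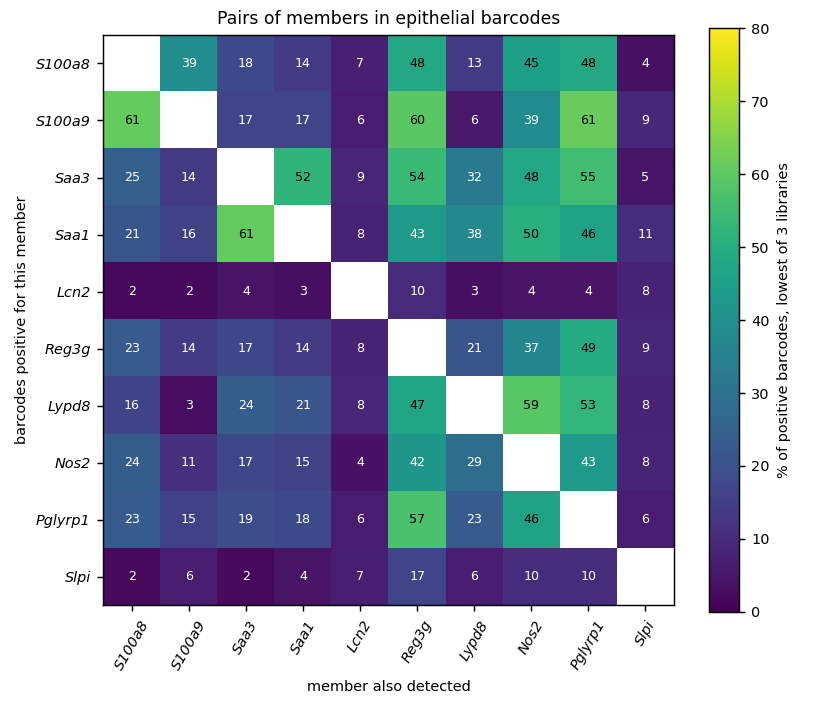
Share of the barcodes positive for 1 gene (rows) that were also positive for another (columns), as a percent of positive epithelial barcodes. Each cell is the lowest of the 3 libraries. The pairs S100a9 with S100a8 (61.1%) and Saa1 with Saa3 (60.7%) are among the brightest, and the row of Lcn2 is dark (1.65% to 9.92%).

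Calprotectin and Nos2 were concentrated in Aire-positive TEC, and Lcn2 in Aire-negative TEC. There were 132, 100 and 268 Aire-positive epithelial barcodes. S100a8 had 711, 310 and 449 CPM in Aire-positive barcodes against 27.6, 3.03 and 21.6 CPM in Aire-negative ones. S100a9 had 219, 165 and 182 CPM against 7.04, 0.433 and 25.6. Positive and negative sums did not overlap for either gene. The share of all genes without overlap is not given, here or for the splits below, so this is a description. Nos2 had 222, 145 and 193 CPM against 53.8, 24.0 and 23.1, again without overlap, and Lcn2 had 7.32, 20.8 and 16.4 CPM against 48.5, 169 and 76.2. FB markers were lower with Aire for 3 of 7 tested (Col1a2, Col3a1 and Dcn) and higher for 1 (Col1a1). The summed FB list was higher in Lcn2-positive than in Lcn2-negative barcodes of every library (log2 ratio of 0.71 to 1.13), as was that of mTEC1 genes, markers of medullary TEC such as Ccl21a (1.17 to 1.88), and the part of FB RNA in the Lcn2 values was not tested.

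Sums per library were compared with the quasi-likelihood test of edgeR, with the library as a block and p adjusted by Benjamini-Hochberg over all genes. The genes were picked with earlier results of these libraries known, so the p-values describe the libraries and are no independent support. Of the 10 genes, 3 were higher in Aire-positive barcodes and 2 lower, where 17.9% of 14587 genes tested were higher and 17.3% lower. S100a8 rose by 4.98 ± 0.46 (log2 fold change ± SE, n = 3 libraries, edgeR adjusted p = 0.00356) and S100a9 by 4.46 ± 0.85 (edgeR adjusted p = 0.0160). Nos2 rose by 2.52 ± 0.21 (edgeR adjusted p = 0.00309), while the change in Lcn2 was -2.68 ± 0.21 (edgeR adjusted p = 0.00266). The calls of S100a8, Nos2 and Lcn2 held under each alternative tried, and that of S100a9 was lost only without Foxn1Lin female (4.14, edgeR adjusted p = 0.0503).

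Pglyrp1 was also called lower in Aire-positive barcodes (-0.59 ± 0.15, edgeR adjusted p = 0.0332), with 72.2, 115 and 93.3 CPM against 87.9, 196 and 138. Yet 40.2%, 52.0% and 48.1% of Aire-positive barcodes held a UMI of it, against 11.2%, 7.74% and 9.09% of Aire-negative ones, so level and share went in opposite directions and no order is read from the share. This call was lost under several alternatives, among them without Foxn1Lin male (-0.44, edgeR adjusted p = 0.0988) and without the wild type (-0.54, edgeR adjusted p = 0.214). Within Spib-negative barcodes the sign turned (0.85, edgeR adjusted p = 0.267). Saa3 (1.15), Lypd8 (1.04), Saa1 (0.54), Reg3g (-0.51) and Slpi (-1.04) did not pass the test, with adjusted p of 0.0906 to 0.661 in edgeR.

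In single barcodes, Aire was found in 63.3%, 85.7% and 78.7% of S100a8-positive barcodes against 27%, 18.6% and 23.9% of S100a8-negative ones. Of the 21, 12 and 44 barcodes with at least 10 UMIs of S100a8, 90.5%, 91.7% and 88.6% held Aire. Aire was found in 71.2%, 75.4% and 79.1% of Nos2-positive barcodes against 19.1%, 14.4% and 16.9% of Nos2-negative ones. Macrophages also express Nos2, and 8 macrophage genes summed to 594, 431 and 321 CPM in Nos2-positive barcodes against 144, 78.1 and 78.0 in Nos2-negative ones. Of these 8 genes, 0 were at 0 in Nos2-positive barcodes and 0 to 2 in Nos2-negative ones. In S100a8-positive barcodes the same genes summed to 428, 578 and 422 CPM against 232, 107 and 101, with 0 or 1 at 0. The sums were also higher in every library in barcodes positive for Reg3g (713, 458 and 307 CPM against 130.1, 62.6 and 64.0), Pglyrp1 (653, 409 and 357 against 143, 59.6 and 59.5) and Saa1 (487, 413 and 712 against 245, 139.7 and 90.5), and likewise for Saa3, Lypd8 and S100a9. They were lower for Lcn2 (194, 25.5 and 78.0 against 279.8, 228 and 169). The part of these macrophage genes in the values of the members was not tested. For Lcn2 the shares were 12.5%, 4.96% and 11.7% of positive barcodes against 34.5%, 29.8% and 36.0% of negative ones. Aire-positive barcodes were deeper, with a median of 13819 to 21975 UMIs against 9293 to 14183. At 2000 UMIs per barcode the S100a8 difference remained in each library, with Aire in 64.0%, 64.7% and 50.0% of S100a8-positive barcodes against 18.3%, 10.5% and 13.2% of negative ones.

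In the Spib split Pglyrp1 and Saa3 were called higher beside S100a8, S100a9 and Nos2, and Lcn2 was again called lower. Pglyrp1 had been called lower with Aire. There were 89, 98 and 264 Spib-positive epithelial barcodes, and 64, 62 and 185 of these were also Aire-positive. Of the 10 genes 5 were higher and 1 lower in Spib-positive barcodes, where 15.7% of 14756 genes were higher and 15% lower (edgeR, as above). Of the M-cell genes tested, 3 of 5 were higher with Spib. So were 4 of 4 genes of Aire-expressing medullary TEC (mTEC2), 4 of 6 tuft genes, 4 of 7 genes of enterocytes or hepatocytes and 1 of 5 goblet genes. Lower were 2 of 5 mTEC1, 2 of 5 aaTEC1, 1 of 5 cortical TEC and 1 of 8 keratinocyte genes. The Spib split was therefore not particular to M-cell genes. Markers of blood cells were higher too. Of 10 hematopoietic genes 5 were called higher with Spib (Laptm5, Coro1a, Rac2, Cd52 and Fcer1g), of 7 macrophage genes tested 2 (C1qb and Lyz2) and of 6 neutrophil genes tested 2 (Ly6g and Mpo), and 0 of these lists were lower. With Aire these counts were 4 of 10 (Laptm5, Rac2, Cd52 and Fcer1g), 4 of 7 and 3 of 6 (Camp, Ngp and Mpo), again with 0 lower. In barcodes with 0 UMIs of Ptprc, the gene of CD45, the Spib split called the same 6 members, and the Aire split all but Pglyrp1 (-0.55, edgeR adjusted p = 0.0525). S100a8 had 771, 198 and 459 CPM in Spib-positive and 120, 65.5 and 32.0 in Spib-negative barcodes (2.69 ± 0.43, edgeR adjusted p = 0.0108). Pglyrp1 had 120, 462 and 282 CPM against 68.6, 28.0 and 40.6 (2.54 ± 0.62, edgeR adjusted p = 0.0337). It was higher on the positive side of every library, but far less so in the female one.

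Nos2 changed by 1.67 ± 0.35 with Spib (edgeR adjusted p = 0.0212), S100a9 by 1.65 ± 0.15 (edgeR adjusted p = 0.00316) and Lcn2 by -2.50 ± 0.35 (edgeR adjusted p = 0.00742). Saa3 had 553, 50.8 and 130 CPM against 330, 30.5 and 75.1, a small difference that passed the test (0.72 ± 0.11, edgeR adjusted p = 0.00947). It was lost under several alternatives, among them once barcodes with Mzb1 or Jchain were left out (0.18, edgeR adjusted p = 0.721) and turned to -0.33 after thinning (edgeR adjusted p = 0.690). Saa1 (0.78), Reg3g (0.31), Lypd8 (0.81) and Slpi (-1.26) did not pass (adjusted p of 0.235 to 0.681 in edgeR). Spib-positive barcodes had a median of 15429 to 21893 UMIs against 9535 to 14007. The number of calls was 3 without the wild type, where Nos2 (1.88, edgeR adjusted p = 0.0548), Saa3 (0.73, edgeR adjusted p = 0.0735) and Pglyrp1 (2.42, edgeR adjusted p = 0.122) were lost. It was 9 without Foxn1Lin female, where Saa1, Lypd8 and Slpi were gained. Pglyrp1 was also lost without Foxn1Lin male (1.79, edgeR adjusted p = 0.0901).

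Separating Aire from Spib showed where each gene was highest. S100a8 had 982, 250 and 580 CPM in barcodes with both, 410, 487 and 105 in those with Aire alone, 36.4, 4.17 and 40.1 in those with Spib alone and 26.7, 2.90 and 19.1 in those with neither. S100a9 was likewise at 135 to 244 CPM in both groups with Aire and at 0 to 30.3 CPM in both groups without it. Pglyrp1 had 267, 1719 and 887 CPM in the 25, 36 and 79 barcodes with Spib alone, against 57.2 to 125 CPM with Aire and 69.6, 19.3 and 37.6 with neither. Reg3g was also highest with Spib alone, at 521, 1483 and 1045 CPM. Lcn2 was at 53.4, 180 and 78.6 CPM in barcodes with neither gene, and at 0 to 76.5 CPM in the other groups.

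**Figure D4:**
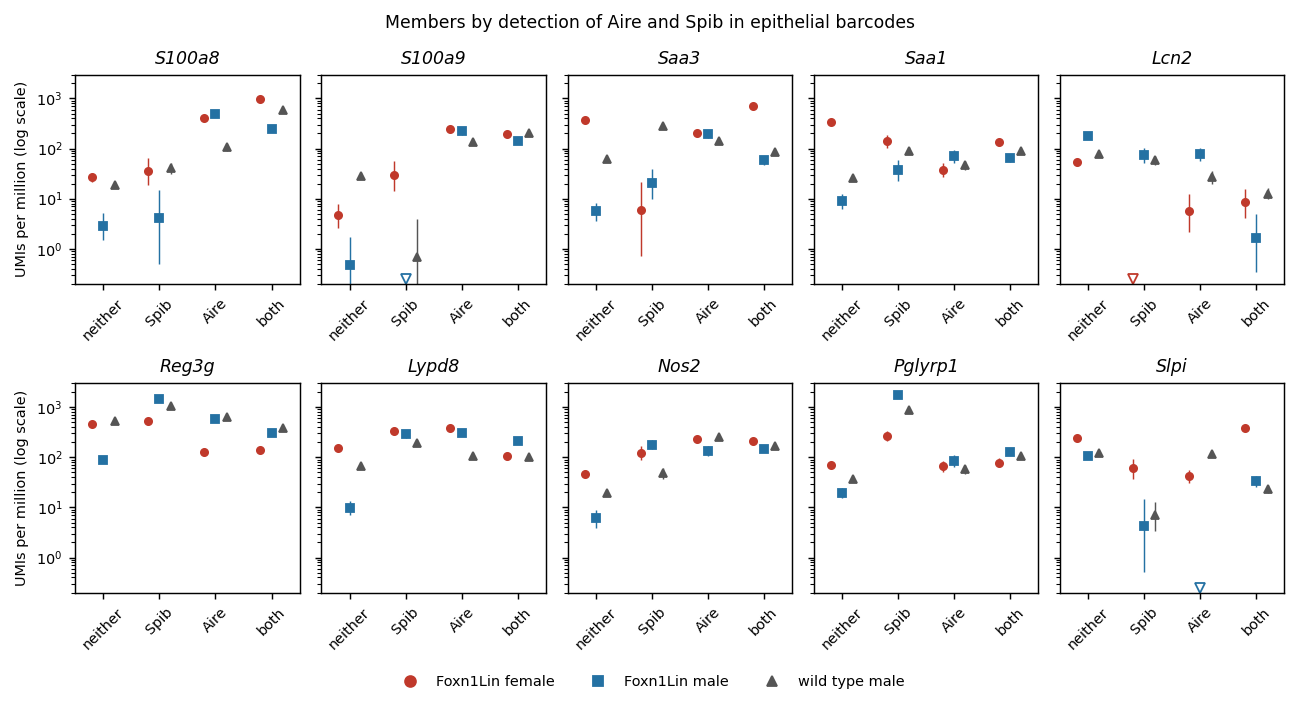
Level of each gene in epithelial barcodes with both Aire and Spib, Aire alone, Spib alone or neither, in CPM on a logarithmic axis, 1 point per library. S100a8 is high in the groups with Aire (105 to 982), Pglyrp1 in the group with Spib alone (267 to 1719), and Lcn2 in the group with neither (53.4 to 180).

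Within Aire-positive barcodes the Spib split called 0 of the 10 genes (edgeR, 0.026% of 11517 genes higher and 0.0521% lower), although 2111 genes had an unadjusted p under 0.05. There S100a9 (-0.10), Nos2 (-0.17) and Saa3 (-0.23) turned sign from the Spib calls above, with edgeR adjusted p of 0.702 to 0.908, and S100a8 (0.99), Pglyrp1 (0.60) and Lcn2 (-1.81) kept theirs without passing. Within Spib-negative barcodes the Aire split still called S100a8 (4.28 ± 0.91, edgeR adjusted p = 0.0405), S100a9 (4.82 ± 1.11, edgeR adjusted p = 0.0490) and Nos2 (3.41 ± 0.42, edgeR adjusted p = 0.0102) as higher and Lcn2 (-1.80 ± 0.36, edgeR adjusted p = 0.0359) as lower. There, 8.1% of 12781 genes were higher and 2% lower. Both of these comparisons were added after the data had been seen, and whether the Aire effect differed between Spib-positive and Spib-negative barcodes was not tested.

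Other barrier genes differed with Aire and Spib as well. Of 49 further antimicrobial and acute-phase genes, 37 could be tested in the Aire split, where 12 were higher and 7 lower (17.9% and 17.3% of all genes tested, so the number lower was near the background), with a median log2 fold change of 0.95 against -0.03 over all genes. In the Spib split 13 of 36 were higher and 3 lower (15.7% and 15% of all genes; median 0.49 against -0.01). Higher with Aire were Ang4, an angiogenin of Paneth cells (5.32, edgeR adjusted p = 0.00529), Pglyrp2, an amidase that cleaves peptidoglycan (3.56, edgeR adjusted p = 0.00434), the lectin Itln1 (2.69, edgeR adjusted p = 0.00665) and the calcium-binding S100a14 (3.39, edgeR adjusted p = 0.00160). Lower were the polymeric immunoglobulin receptor Pigr (-0.85, edgeR adjusted p = 0.0360), the defensin Defb1 (-1.24, edgeR adjusted p = 0.0157), S100a10 (-1.82, edgeR adjusted p = 0.0135) and the lipopolysaccharide-binding Lbp (-1.37, edgeR adjusted p = 0.0473). Lyz2, a lysozyme of macrophages, was higher with Aire (2.37, edgeR adjusted p = 0.00751), and so were C1qb, C1qc and Mrc1 among the macrophage markers (4 of 7 tested), whose part in these values was not tested. The neutrophil granule genes Camp (2.42, edgeR adjusted p = 0.0130) and Ngp (17.8, 42.9 and 10.4 CPM against 0 in each library, edgeR adjusted p = 0.00579) were among the 12 as well.

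Genes of the pathways that induce such proteins in barrier tissue were called lower more often than higher. The 33 genes listed were receptors, adaptors, transcription factors, inhibitors, cytokines and chemokines. Of these, 27 were tested in each of the 2 splits, and 5 were higher and 14 lower in either. Over all genes 17.9% were higher and 17.3% lower with Aire, and 15.7% and 15% with Spib, so the number higher was near the background. The list had medians of -0.54 (Aire) and -0.52 (Spib). Lower with Aire were the toll-like receptor Tlr4 (-2.21, edgeR adjusted p = 0.00386), its adaptor Myd88 (-1.52, edgeR adjusted p = 0.0113) and Il6st, the signaling chain of the interleukin 6 receptor (-1.95, edgeR adjusted p = 0.00555). Lower too were Nfkbiz, a nuclear cofactor that helps induce Lcn2 (-1.58, edgeR adjusted p = 0.00453), Cebpd (-2.04, edgeR adjusted p = 0.00691) and Socs3, a target of interleukin 6 signaling (-2.19, edgeR adjusted p = 0.00362). Among the 5 that were higher were Nfkb2 (1.54, edgeR adjusted p = 0.00263) and Relb (1.46, edgeR adjusted p = 0.00289), both of the noncanonical NF-kB pathway on which medullary TEC depend, and the chemokine Cxcl1 (1.43, edgeR adjusted p = 0.0128).

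Krtdap-positive barcodes, of which there were 37, 40 and 43, showed 0 of the 10 genes as changed in edgeR, where 0.0149% of 13457 genes were higher and 0.0223% lower and 898 had an unadjusted p under 0.05. DESeq2 called 1 of the 10, Reg3g, and more were called in edgeR with no filter on low counts and after thinning, as given in the closing section. Reg3g had 63.2, 31.4 and 146 CPM in Krtdap-positive and 372, 327 and 563 CPM in Krtdap-negative barcodes, without overlap (-2.54 ± 0.29, edgeR adjusted p = 0.115). It passed the test without Foxn1Lin male (-2.18, edgeR adjusted p = 0.0381) and without the wild type (-2.91, edgeR adjusted p = 0.0263). Saa3 had 1902, 62.8 and 123 CPM against 189, 32.5 and 91.8, so its female value stood far above the rest. In Foxn1Lin female, Krtdap was found in 32.5% of Lcn2-positive barcodes against 6.52% of Lcn2-negative ones, in Foxn1Lin male in 14.9% against 6.98% and in the wild type in 5.08% against 4.54%.

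The split by Cldn3, with 154, 121 and 342 positive epithelial barcodes, was added after the data had been seen. In it, 5 of the 10 genes were higher and 0 lower, where 4.49% of 14259 genes were higher and 3.41% lower (edgeR). Reg3g had 703, 471 and 1008 CPM in Cldn3-positive and 101, 150 and 132 in Cldn3-negative barcodes (2.44 ± 0.29, edgeR adjusted p = 0.0100). Pglyrp1 had 174, 330 and 225 CPM against 23.1, 54.0 and 31.6 (2.75 ± 0.13, edgeR adjusted p = 0.00336). Neither gene overlapped between the sides. Lypd8 (1.67 ± 0.16, edgeR adjusted p = 0.00586), Saa3 (1.78 ± 0.29, edgeR adjusted p = 0.0228) and Nos2 (0.98 ± 0.16, edgeR adjusted p = 0.0259) were higher as well.

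Of these calls, Reg3g and Pglyrp1 held after thinning (1.40, edgeR adjusted p = 0.0250, and 1.02, edgeR adjusted p = 0.0311), whereas Saa3 turned to -1.17 (edgeR adjusted p = 0.0562) and S100a8, at 0.33 before, was called lower at -1.38 (edgeR adjusted p = 0.0106). Lypd8 (0.67) and Nos2 (0.54) no longer passed. Without the wild type only Pglyrp1 was called, and without Foxn1Lin female Reg3g was lost (2.28, edgeR adjusted p = 0.0685). Of 6 M-cell markers, 5 were higher with Cldn3 (Gp2, Tnfaip2, Ccl20, Ccl9 and Sox8) and 0 lower, against the 4.49% and 3.41% of all genes given above. Other lists had fewer calls. Higher were goblet genes (2 of 3 tested, Wfdc2 and Agr2), tuft genes (2 of 6, L1cam and Trpm5), genes of enterocytes or hepatocytes (2 of 6, Apoa4 and Fabp1), hematopoietic genes (2 of 10, Rac2 and Cd52) and the macrophage gene Lyz2 (1 of 7). The neutrophil genes Ly6g and Ltf were higher and Mmp9 lower. Cortical TEC genes (3 of 5, Prss16, Psmb11 and Ly75), FB genes (2 of 7, Col3a1 and Dcn) and plasma cell genes (3 of 9) were lower, and of 4 aaTEC1 genes Krt8 was higher and Krt5 lower. The part of the blood cell genes in the values of the members was not tested. Of the 36 further antimicrobial and acute-phase genes tested, 8 were higher and 0 lower against the same background, among them Bpifa1, a secreted airway protein (4.24, edgeR adjusted p = 0.00336), and Pigr (3.70, edgeR adjusted p = 0.00479).

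**Figure D5:**
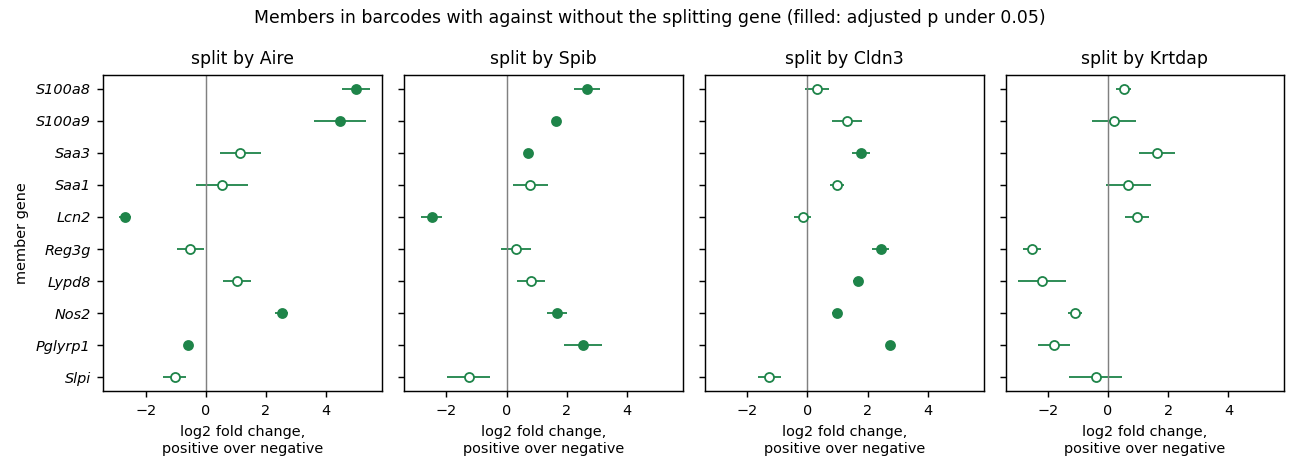
Log2 fold change of each gene between positive and negative epithelial barcodes of the Aire, Spib, Krtdap and Cldn3 splits, with SE bars (edgeR, n = 3 libraries); filled points have an adjusted p under 0.05. S100a8 and S100a9 are highest with Aire (4.98 and 4.46), Pglyrp1 with Cldn3 (2.75) and Spib (2.54), and Lcn2 is below 0 with Aire and Spib (-2.68 and -2.50).

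Slpi differed from the other genes in the barcodes that held it. Barcodes with a UMI of Mzb1 or Jchain, 2 genes of plasma cells, were 27, 9 and 49 of the epithelial barcodes but held 90.3%, 63.5% and 69.0% of the Slpi UMIs. Without them 23.8, 27.1 and 29.5 CPM of Slpi were left, while empty droplets had 31.7, 20.6 and 28.6 CPM. The 45, 48 and 69 Slpi-positive barcodes held 89.1%, 98.3% and 96.2% of the UMIs of 9 plasma cell genes in the epithelial barcodes. The genes most alike to Slpi, by the log2 ratio of CPM between its positive and negative barcodes, were accordingly Ighg2b (7.54 to 9.44 over the libraries), Igkc, Mzb1, Iglv1 and Iglc2. No immunoglobulin gene was among the 5 leading genes of any of the other 9, and the epithelial origin of Slpi RNA was not tested. Barcodes with Mzb1 or Jchain also held up to 25.9% of the UMIs of another gene (S100a9, Foxn1Lin male). They held 24.8% of Saa3 in Foxn1Lin female and 19.3% of Reg3g in the wild type, and their part in these genes was not tested.

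The same measure named the genes that went with each of the others, over 2 or 3 libraries with at least 20 positive barcodes. S100a8 went with S100a9 (5.87 to 5.98), the apolipoprotein Apoa1 (3.5 to 4.28), Retnla, Tff1 and Ccl8. S100a9, in 2 libraries, went with Mt4, the embryonic globin Hba-x, S100a8, the glycoprotein hormone subunit Cga, and Galntl6. Saa3 went with Saa1 (5.34 to 5.45), Wfdc21, the goblet cell trefoil factor Tff3, Crabp1 and Saa2, and Saa1, in 2 libraries, with Saa3, Saa2, Prap1, Retnla and Tff3.

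Reg3g and Pglyrp1 shared Tff1, a trefoil factor of the stomach, as the leading gene (4.33 to 5.25 with Reg3g and 4.15 to 5.13 with Pglyrp1). Pglyrp1 further went with the chemokines Ccl6, Ccl9 and Ccl20 and with Reg3g, and Reg3g with Bpifa1, Ctrb1, Spink5 and Calca. Lypd8 went with Fabp9 (5.01 to 6.39), Aoc1, Tstd1, 2210407C18Rik and the intestinal mucin Muc13. Nos2 went with Slc22a22 (3.52 to 4.22), Spink1, Lypd8, Il12a and Smtnl1. Lcn2 went with Ccl11 (2.32 to 2.74), Fst, Gas1, Socs3 and Lox, all with smaller ratios than the leading genes of the other 9.

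The reporter was found in most of the barcodes with these genes. In Foxn1Lin female and Foxn1Lin male, its transcript was present in 82.2% to 100% of the barcodes positive for a gene and in 87.2% to 92.6% of the negative ones, and in 0 barcodes of the wild type.

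Levels also differed between the libraries, without a test since each group was 1 library. Foxn1Lin female was past 2-fold above Foxn1Lin male for 4 of the 10 genes (10.3% of 15956 genes) and below it for 2 (5.28%). Saa3 was 10.5-fold, Saa1 7.71-fold, Slpi 3.11-fold and S100a8 2.66-fold higher in Foxn1Lin female, and Lcn2 was at 0.277-fold and Pglyrp1 at 0.487-fold of Foxn1Lin male. Without the 5 highest barcodes of each library the set changed. Pglyrp1 (43.8 against 46.9 CPM) and Slpi were no longer past 2-fold, S100a9 (24.9 against 4.94 CPM) and Lypd8 (81.4 against 30.7 CPM) now were, and S100a8 had 130.1 against 31.6 CPM and Lcn2 15.9 against 81.8. Against the wild type, Foxn1Lin female was past 2-fold higher for Saa1 (4.78-fold), Saa3 (4.14-fold), Slpi (2.49-fold) and Lypd8 (2.19-fold), as were 9.66% of 17610 genes, and lower for 0 (8.01% of genes). Foxn1Lin male was past 2-fold above the wild type for Lcn2 alone (2.17-fold, 5.2% of 17543 genes) and below it for Saa3 alone (0.396-fold, 9.1% of genes). The median log2 ratio over all genes was -0.13 in this comparison. Lcn2 was no longer past 2-fold there without the 5 highest barcodes (81.8 against 43.9 CPM), without barcodes holding Mzb1 or Jchain (105 against 56.1 CPM) or after thinning (log2 ratio of 0.68). Without the 5 highest barcodes, S100a8, S100a9, Saa1 and Reg3g joined Saa3 in being past 2-fold lower in Foxn1Lin male than in the wild type (S100a9 had 4.94 against 47.2 CPM), and Lcn2 (15.9 against 43.9 CPM) and Reg3g (71.2 against 273 CPM) were past 2-fold lower in Foxn1Lin female than in the wild type. Slpi was not higher in Foxn1Lin female once barcodes with Mzb1 or Jchain were left out, with 23.8 against 27.1 and 29.5 CPM (log2 ratios of -0.19 and -0.31), and without the 5 highest barcodes it had 21.5 against 20.1 and 20.5 CPM.

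The female values of the serum amyloid genes rested on few barcodes. The 5 highest epithelial barcodes held 78.5% of Saa3 and 80.7% of Saa1 UMIs in Foxn1Lin female, and without them the levels were 84.9 and 46.6 CPM. After the same was done in the other libraries, 9.50 and 13.0 CPM remained in Foxn1Lin male and 37.9 and 26.6 CPM in the wild type, so that Saa1 was no longer past 2-fold above the wild type (log2 ratio of 0.81). Without the 48 barcodes of Foxn1Lin female that held a UMI of Ptprc, the gene of CD45, Saa3 was at 285 and Saa1 at 131 CPM. These were 48 of 408 epithelial barcodes, against 9 of 436 in Foxn1Lin male and 23 of 917 in the wild type. FB markers summed to 547 CPM in the epithelial barcodes of Foxn1Lin female, against 253 and 239. The part of such RNA in the library differences was not tested. Sex and genotype cannot be told apart from the library, because Foxn1Lin female was the only female library and the wild type library the only one without the reporter.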

How the data were processed

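Droplet single-cell RNA sequencing (10x Genomics) was analyzed for 3 libraries of CD45- thymic cells, Foxn1Lin female, Foxn1Lin male and wild type male, with 53366016, 33386621 and 61258534 UMIs in called barcodes. The deposited values were whole-number UMI counts per gene and barcode, which the authors made with Cell Ranger (7.01 in the submitters' processing notes) on GRCm38 (mm10) with reporter sequences added. They were used as deposited. The headers of the matrices of all barcodes, used for empty droplets, name another Cell Ranger version than those of called barcodes. At the called barcodes 0 entries differed between them in each library. The library summaries of reads were not used here. 

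The 10 genes, the marker lists and the tests were chosen with earlier results of these data known. The named genes were the 10, the gate and split genes, 5 genes per member by likeness (log2 ratio of CPM between positive and negative barcodes with 5 CPM added, at least 10 UMIs), and list genes that passed a test. Splits by Cldn3, by Spib within Aire-positive and by Aire within Spib-negative barcodes, the gate on Mzb1 and Jchain, and unscaled totals were added after seeing the data.

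Counts were summed per library over positive (at least 1 UMI) and negative barcodes and tested with the quasi-likelihood test of edgeR 4.0.16 (R 4.3.3; TMM, filterByExpr, library as block, adjusted p of 0.05). Both sums come from the same library, which is the pairing. DESeq2 1.42.0 was an alternative. The p-values measure the spread between 3 libraries, which are single pools. In a test on simulated data for the Aire split (14601 genes), 83.7% of genes changed 2-fold and 99.0% of those changed 4-fold were recovered. For Krtdap (13778 genes) these were 55.6% and 90.4%, and for Spib (14845 genes) 71.4% and 95.6%. The simulation gave all genes the same small spread and changed only genes above a floor of counts. UMIs of the members often lay in few barcodes, so these shares may not hold for them. Shares and levels have exact 95% binomial and Poisson intervals (scipy 1.17.1), which cover counting error only. Doublets were kept. Scrublet (scanpy 1.11.5) marked 4, 23 and 13 barcodes by its automatic threshold, so the highest 3.9% of scores, 361, 148 and 218 barcodes, were left out as an alternative. Other alternatives changed the gates, barcode quality, depth (2000 UMIs, leaving out 16, 19 and 29 epithelial barcodes), the count filter, the scaling and the libraries used. Positions are from GENCODE vM21 (GRCm38) and promoters from RefSeq (GRCm38.p6).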

Additional observations from a re-analysis of the deposited data

Results flagged for a closer look

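Several genes moved in opposite directions in the 3 libraries when positive and negative epithelial barcodes were compared. The values are ratios of CPM in positive over negative barcodes, given for Foxn1Lin female first, then Foxn1Lin male, then the wild type. The differences between libraries were not tested, as each group was 1 library. Between Spib-positive and Spib-negative barcodes the ratio was 0.502, 3.54 and 3.13 for Saa1, 0.606, 3.66 and 0.968 for Reg3g, 0.770, 4.64 and 1.67 for Lypd8, and 1.61, 0.298 and 0.160 for Slpi. Between Aire-positive and Aire-negative barcodes it was 0.273, 5.59 and 2.34 for Saa1 and 0.296, 1.62 and 0.773 for Reg3g. Between Krtdap-positive and Krtdap-negative barcodes it was 0.712, 0.317 and 4.55 for S100a9, 6.45, 0.488 and 0.826 for Saa1, and 4.22, 0.288 and 0.253 for Slpi.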

How the results depend on the processing

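The number of genes above FB and EC was 10 under each of the 9 alternatives, which changed the epithelial, FB and EC barcodes alike. Against unreduced FB and EC, S100a9 and Slpi fell below once the 5 highest epithelial barcodes, or for Slpi those with Mzb1 or Jchain, were left out. Counts of genes called in a split stayed within 1.5 times in 51 of 60 alternatives. Levels moved past their counting interval in 112 of 240 cases, and ratios between libraries in 113 of 240. In 2 more, a ratio that had been past 2-fold turned sign. Sign changes of smaller ratios, such as Reg3g between the Foxn1Lin libraries without the 5 highest barcodes (71.2 in female against 119 CPM in male), were not counted apart. With each library left out in turn, the Spib split called 3 to 9, Aire 4 to 6, Krtdap 0 to 1 and Cldn3 1 to 4 genes, and the cause was not tested. Within Aire-positive barcodes, which are fewer, the Spib split called 0, and S100a9 (-0.10), Saa3 (-0.23) and Nos2 (-0.17) changed sign, as Saa3 (-0.33) did after thinning. Pglyrp1 changed sign with Aire within Spib-negative barcodes (0.85). The Krtdap split called 1 gene with DESeq2, 1 with Ptprc of 0 UMIs, 4 with no filter on low counts and 5 after thinning, which left 2 libraries and gave Slpi 1.80. The shares of all genes called under these alternatives are not given, so these counts have no background. With Cldn3, thinning reversed S100a8 (-1.38) and Saa3 (-1.17). Leaving out the 5 highest barcodes kept 17 of 30 levels above empty droplets. Without Mzb1 and Jchain barcodes, the log2 ratio of Slpi turned to -0.19 (Foxn1Lin female over Foxn1Lin male) and -0.31 (over the wild type).

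Without the replicate block, that is without the pairing of the sums of 1 library, the Spib split called 5 genes (Saa3 lost, 0.75, edgeR adjusted p = 0.651), the Aire split 4 (Pglyrp1 lost, -0.65, edgeR adjusted p = 0.192) and the Krtdap split 0. Depth limits the shares, since thinning to 2000 UMIs lowered the epithelial ones to 1.92% to 13.0%, and a gene not seen in a barcode was only not detectable at its depth.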
